A study of Homo sapiens with 6 samples.

Results

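The 9 genes described here, *PAX2*, *PAX8*, *OSR1*, *SALL1*, *EYA1*, *SIX2*, *WT1*, *LHX1* and *GATA3*, code for transcription regulators of the early kidney, and were taken by symbol from a count table of 26485 gene names. All 9 were listed, and 8 of them were among the 14877 genes tested. The table holds polyA RNA-seq of HEK293 cells, an established line derived from human embryonic kidney, in 3 cultures with knockdown of the long non-coding RNA HSALNG0134318 and 3 control cultures. Knockdown was done by transient transfection with a Smart Silencer, which mixes siRNAs with antisense oligonucleotides against a single transcript, and the controls are described as NC in 1 label and as WT in another. What the controls were transfected with is not given in the sources used here. The labels carry the numbers 1, 4 and 5 for the knockdown replicates and 10, 11 and 1 for the control replicates. This is the order of replicates 1 to 3 used throughout. What the label numbers stand for is not given in the sources used here. The study describes the 3 cultures of a group as independent experiments, and the p-values measure the spread between them. HSALNG0134318 is not listed in the table, and its loss could not be checked. As these are bulk samples of a cultured line, fewer cells that express a gene and less RNA per cell cannot be told apart.

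In the forming kidney, nephrons arise from mesenchymal progenitors that gather around the tips of the ureteric bud. *OSR1*, a zinc finger factor, marks the early mesoderm from which these progenitors come, and *EYA1*, *SALL1*, *WT1* and *PAX2* act in the mesenchyme that induces the bud. *SIX2*, a homeobox factor, keeps progenitors undifferentiated, *PAX8* is a paired box relative of *PAX2* with overlapping roles, *LHX1*, a LIM homeobox factor, is needed for the first epithelial vesicles, and *GATA3*, a zinc finger factor, acts in the nephric duct and its bud.

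Promoter windows from RefSeq (GRCh38.p14), each 300 bases long from upstream to just past an annotated transcript start, were found for 5 of the genes, *SIX2*, *PAX8*, *GATA3*, *PAX2* and *WT1*. The windows of *PAX2* and *PAX8* are shown because these relatives lay far apart in level, and that of *SIX2* because its log2 fold change was the largest in size among the genes with a window. Sequences are written 5′ to 3′ on the strand of the gene, with CG dinucleotides in capitals. The windows lie at chr10:100735146-100735445 and chr10:100745332-100745631 for *PAX2* (plus strand), at chr2:113278872-113279171 for *PAX8* (minus strand) and at chr2:45009403-45009702 for *SIX2* (minus strand).
PAX2, upstream start: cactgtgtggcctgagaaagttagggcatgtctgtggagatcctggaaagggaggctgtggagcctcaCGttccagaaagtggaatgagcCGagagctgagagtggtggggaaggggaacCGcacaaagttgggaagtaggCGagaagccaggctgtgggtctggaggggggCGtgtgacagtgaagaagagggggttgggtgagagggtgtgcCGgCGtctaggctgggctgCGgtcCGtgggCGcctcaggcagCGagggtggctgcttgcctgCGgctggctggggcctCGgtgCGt
PAX2, downstream start: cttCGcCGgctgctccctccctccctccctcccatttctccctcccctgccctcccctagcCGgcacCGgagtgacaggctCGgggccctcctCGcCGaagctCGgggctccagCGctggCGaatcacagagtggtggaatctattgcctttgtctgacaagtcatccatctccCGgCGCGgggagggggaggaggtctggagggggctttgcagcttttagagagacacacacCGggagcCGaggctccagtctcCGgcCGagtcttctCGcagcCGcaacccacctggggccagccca
PAX8: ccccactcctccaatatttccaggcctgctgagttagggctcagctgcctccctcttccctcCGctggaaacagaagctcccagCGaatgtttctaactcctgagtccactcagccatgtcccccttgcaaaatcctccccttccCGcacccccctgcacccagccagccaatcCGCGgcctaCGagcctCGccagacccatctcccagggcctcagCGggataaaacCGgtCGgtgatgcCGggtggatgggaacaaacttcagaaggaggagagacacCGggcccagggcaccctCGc
SIX2: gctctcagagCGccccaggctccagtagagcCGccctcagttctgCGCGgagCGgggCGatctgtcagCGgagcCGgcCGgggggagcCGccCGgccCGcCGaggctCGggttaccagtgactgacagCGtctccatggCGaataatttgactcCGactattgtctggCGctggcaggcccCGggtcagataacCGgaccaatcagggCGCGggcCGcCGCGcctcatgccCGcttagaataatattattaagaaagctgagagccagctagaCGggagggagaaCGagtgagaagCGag

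Among all 35116 RefSeq promoter windows of this length, the median number of CG dinucleotides was 14 and the quartiles were 4 and 28. *PAX8*, the gene listed at a few counts per culture, had 13 CG dinucleotides, and *PAX2* had 14 and 19, so that all 3 windows lay near the middle of the range. With 29, *SIX2* had as many as or more than 77.6% of windows. The CCAAT motif, searched on both strands, was matched 2 times in the *PAX8* window and 1 time in the *SIX2* window, and in neither *PAX2* window, while 34.6% of all windows held it. GGGCGG, searched the same way and sharing no letters with a CCAAT match in these windows, was matched 2 times in the *SIX2* window and in none of the *PAX2* and *PAX8* windows, against 45.0% of all windows. TATAAA was found in none of these 4 windows and in 11.5% of all windows.

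Total counts ran from 13900965 to 16869948 per culture, and levels are given in counts per 1000000 (cpm) of the TMM-normalized library size, with 1 cpm standing for 14.01 to 16.85 counts. Of 10 genes known to be high in HEK293, 9 were expressed, and *STMN2* had 0 counts in all 6 cultures. No marker of the distal nephron or collecting duct was expressed among 5 listed, and *UMOD* and *SLC12A3* had 0 counts. Of the markers of other cells, 2 of 4 podocyte, 3 of 5 proximal tubule and 1 of 3 endothelial genes were expressed, and the leukocyte marker and both stromal or renin cell markers were not. The summed length-scaled level (counts per exon length, scaled to 1000000 per culture) of the podocyte genes was 67.7 to 68.8 after knockdown and 42.2 to 50.2 in controls, that of the proximal tubule genes 14.9 to 19.4 against 19.8 to 29.9, and that of the endothelial genes 2.18 to 3.46 against 4.62 to 5.39. These sums were mostly *PODXL*, *LRP2* and *KDR*, with mean levels of 65.5, 13.2 and 2.77 after knockdown. The HEK293 genes summed to 2656 to 3033 and 2252 to 2804, and 6 nephron progenitor markers, of which 4 were expressed, to 46.2 to 57.8 and 42.7 to 43.8. These 4 did not move together. The log2 fold change was 0.45 for *ITGA8*, 0.40 for *LYPD1*, -0.55 for *CITED1* and -0.81 for *TMEM100*, and none was called at an adjusted p under 0.05 (edgeR). The podocyte, proximal tubule, endothelial and progenitor sums did not overlap between the groups. The sums of the HEK293, distal nephron, leukocyte and stromal genes did. Of all single genes tested, 32.2% did not overlap. The part of these cell type markers in the changes of the regulators was not tested.

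At a level of at least 1 cpm in each of the 6 cultures, 8 of the 9 regulators were expressed in HEK293, all but *PAX8*. The count was also 8 at 0.5 cpm in every culture, at 10 counts in every culture and with any single culture left out. Of the expressed genes, *SALL1* was the most abundant in raw reads, with 1085 to 1388 counts per culture, and *OSR1* and *SIX2* the least, with 42 to 134 and 42 to 127 counts. Reads of *PAX8* numbered 2, 5 and 4 after knockdown and 2, 6 and 3 in the controls. *PAX8* shares 1651 exonic bases with *PAX8-AS1* on the other strand, and while the libraries were made with a stranded kit, the strand setting of the counting is not given in the sources used here, so the assignment of reads from the shared bases is uncertain. *PAX8-AS1* itself lay between 0 and 0.214 cpm.

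**Figure D1:**
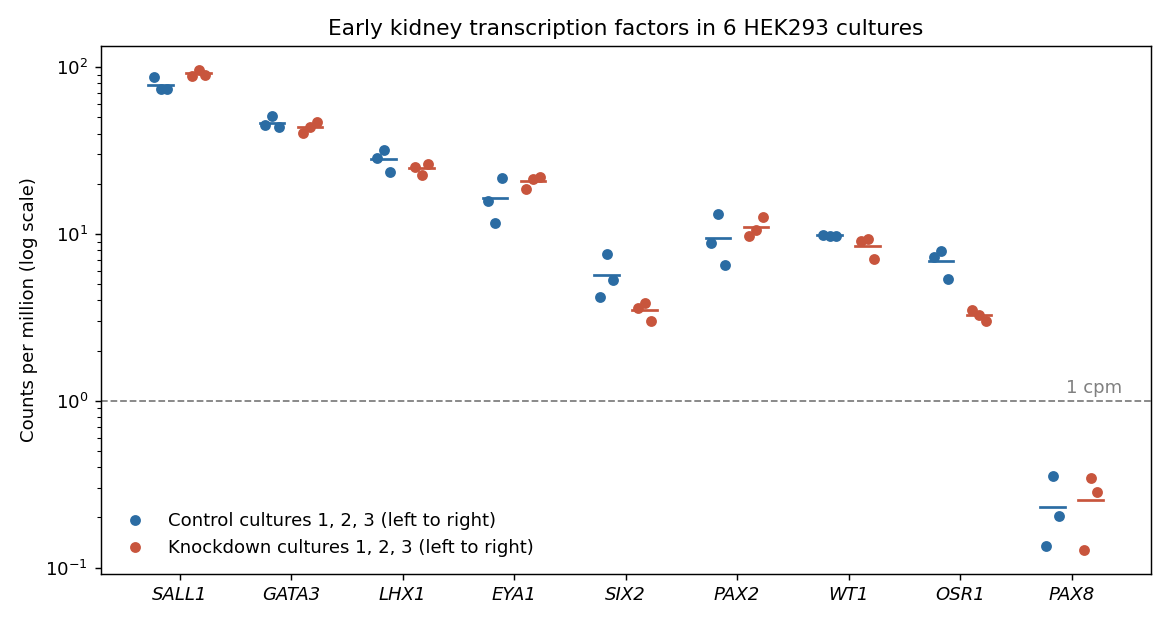
Levels in cpm (log axis) of the 9 nephron progenitor regulators in each of the 3 control and 3 knockdown cultures, 1 point per culture. *PAX8* lies below 0.36 cpm in every culture, under the level of 1 cpm that all other points pass. The points of the 2 groups do not overlap for *OSR1*, *SIX2*, *WT1* and *SALL1*, which held for 32.2% of all tested genes.

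Levels of different genes were compared only per length, as counts per kilobase of annotated exons scaled so that each culture sums to 1000000. On this scale *SALL1* (median over 6 cultures 74.9, range 57.9 to 81.8) and *GATA3* (70.3, range 62.7 to 74.7) were highest, and *SALL1* lay above *GATA3* in 4 of 6 cultures. *LHX1* followed at 28.1 (24.7 to 31.9), below every value of *GATA3* and above every value of the next gene. The middle of the order was less distinct. *EYA1* had a length-scaled level of 11.3 (6.18 to 12.8), *SIX2* of 9.89 (7.38 to 16.9), *PAX2* of 8.17 (5.18 to 10.4), *WT1* of 6.04 (4.72 to 6.62) and *OSR1* of 4.45 (3.08 to 7.47). Each of these overlapped its neighbour in the order. At 0.178 (0.0919 to 0.252), *PAX8* lay below all values of the others. When lengths were taken from the longest transcript, *WT1* was 5th, *PAX2* 6th and *SIX2* 7th, and the other 6 genes kept their places. Among the tested genes with a known length, 76.5% were at or below the level of *SALL1*, 74.8% at or below that of *GATA3* and 48.7% at or below that of *LHX1*, while the other 5 expressed regulators lay above only 15.8% to 28.3%.

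Within their gene families the regulators held different places. *SALL1* was the most abundant *SALL* gene, with a median of 47.6% of the summed length-scaled level of its family, ahead of *SALL2* with 38.7%, and *SALL4* was not expressed. *LHX1* held 34.0% of the *LHX* sum behind *LHX2* (49.7%), and *GATA3* held 25.9% of the *GATA* sum behind *GATA6* (51.2%). These 3 were the regulators with the highest levels. In the other families, relatives with roles elsewhere led. *PAX2* held 13.0% of the *PAX* sum, in which *PAX3*, a neural crest and muscle progenitor factor, held 32.4%, and *PAX6*, known for the eye, 23.2%. *PAX8* accounted for 0.275% of the *PAX* sum, and *PAX1*, *PAX4* and *PAX5* were not expressed either. *EYA1* held 10.2% of the *EYA* sum against 38.4% for *EYA3*. All 4 *EYA* genes, cofactors of SIX2, were expressed.

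**Figure D2:**
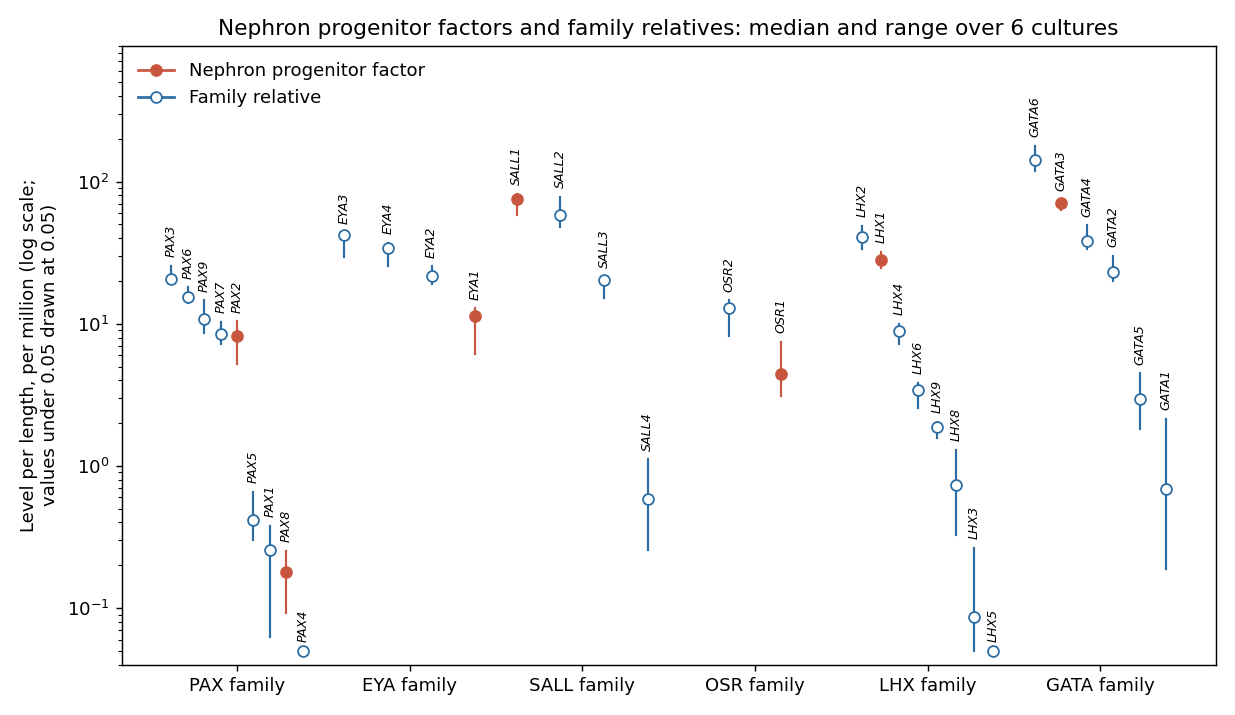
Length-scaled levels (median of 6 cultures, log axis, bars from lowest to highest culture) of all genes in the *PAX*, *OSR*, *SALL*, *EYA*, *LHX* and *GATA* families, with the regulators among them as filled points and values under 0.05 drawn at 0.05. *SALL1* leads its family, *LHX1*, *GATA3* and *OSR1* come second in theirs, and *PAX8* lies near the bottom of the *PAX* genes.

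The design asks what changed when HSALNG0134318 was knocked down. *OSR1* fell, no other regulator was called in either direction at a Benjamini-Hochberg adjusted p under 0.05, and log2 fold changes (knockdown over control) of the 8 tested genes had a median of -0.14, beside -0.02 over all genes tested. The call rule took 4.64% of all tested genes as lower and 5.40% as higher, against 1 of 8 regulators lower and 0 higher. For *OSR1*, *SIX2*, *WT1* and *SALL1*, 4 of 8, the knockdown and control cultures did not overlap in cpm, which held for 32.2% of all tested genes. Taken alone, no gene can reach a two-sided p below 0.10 in an exact permutation test with 3 cultures in each group.

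*OSR1*, on chromosome 2 at 19351485 to 19358623 (minus strand, hg38), had 3.52, 3.26 and 2.997 cpm in knockdown replicates 1, 2 and 3, from 55, 47 and 42 counts. The controls had 7.26, 7.95 and 5.40 cpm, from 107, 134 and 79 counts. All knockdown cultures lay below all controls, and the knockdown cultures lay close together. The mean was 3.26 ± 0.264 cpm after knockdown and 6.87 ± 1.32 cpm in controls (SD, n = 3 cultures each), and *OSR1* fell by 1.07 on the log2 scale (standard error 0.21, 95% interval -1.54 to -0.60, adjusted p of 0.010, edgeR quasi-likelihood F test). The study also listed *OSR1* in gene terms it drew from these cultures, which is no independent evidence of its direction. The adjusted p lay between 0.0016 and 0.059 over 14 other settings, and passed 0.05 without knockdown replicate 2 (0.052) and without knockdown replicate 3 (0.059). *OSR2*, the only relative of *OSR1*, had 6.02, 7.07 and 6.92 cpm after knockdown and 7.87, 8.19 and 4.58 in controls, and its log2 fold change was -0.05 (adjusted p of 0.92, edgeR). *OSR1* thus made up 21.4% ± 2.73 of the *OSR* length-scaled sum after knockdown and 36.1% ± 3.01 in controls (SD, n = 3 each), a difference not tested on its own.

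*SIX2*, on chromosome 2 at 45005182 to 45009452 (minus strand), had 3.59, 3.88 and 2.997 cpm after knockdown and 4.21, 7.53 and 5.33 cpm in control replicates 1, 2 and 3. The groups did not overlap, but control replicate 1 lay near the highest knockdown culture and control replicate 2 far above the rest. The means were 3.49 ± 0.451 and 5.69 ± 1.69 cpm (SD, n = 3 each), and the log2 fold change of -0.71 (standard error 0.25, 95% interval -1.26 to -0.16) was not called (adjusted p of 0.096, edgeR). With counts corrected for GC content and length, a setting chosen after seeing the data, the value was -0.67 and *SIX2* was called as lower (adjusted p of 0.042). That setting called 1442 of 14471 genes lower, against 690 of 14877 in the main fit. In the main fit without control replicate 2, the log2 fold change of *SIX2* was -0.45 (adjusted p of 0.22), over 1.5 times smaller.

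*SALL1*, on chromosome 16 at 51135982 to 51152334 (minus strand), codes for a zinc finger factor of the progenitors that is mutated in Townes-Brocks syndrome. Its cpm were 88.7, 96.3 and 90.3 after knockdown and 87.5, 73.7 and 74.2 in controls. The groups did not overlap, though control replicate 1 lay just below the lowest knockdown culture. The log2 fold change was 0.23 (standard error 0.10, 95% interval 0.01 to 0.44, adjusted p of 0.17, edgeR), and *SALL1* was not called. *SALL2*, whose cpm were 79.5, 66.4 and 61.9 after knockdown and 51.3, 51.8 and 54.4 in controls, rose by 0.40 on the log2 scale (standard error 0.11, adjusted p of 0.043, edgeR) and was the only one of 25 tested family relatives to be called. Over all tested genes, 4.64% were called lower and 5.40% higher. The median log2 fold change of the relatives was -0.15. The call of *SALL2* was lost with the replicate block and without control replicate 1 or any knockdown culture (adjusted p up to 0.17).

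*EYA1*, on chromosome 8 at 71197433 to 71592025 (minus strand), codes for a phosphatase and cofactor that works with SIX2. It had 18.5, 21.4 and 22.1 cpm after knockdown and 15.9, 11.6 and 21.5 cpm in controls. Control replicate 3 lay among the knockdown cultures, and the other 2 controls lay below all of them. The log2 fold change was 0.34 (standard error 0.20, 95% interval -0.09 to 0.77, adjusted p of 0.30, edgeR). Without control replicate 3 it was 0.59 with an adjusted p of 0.046, and without control replicate 2 it was 0.14.

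*PAX2*, on chromosome 10 at 100735396 to 100829944 (plus strand), had 9.68, 10.5 and 12.6 cpm after knockdown and 8.89, 13.1 and 6.50 cpm in controls. The controls held both the highest and the lowest value, and the log2 fold change of 0.20 (standard error 0.23, 95% interval -0.31 to 0.71, adjusted p of 0.63, edgeR) became -0.0058 without control replicate 3 and 0.51 without control replicate 2. *WT1*, the zinc finger factor of progenitors and podocytes, lies on chromosome 11 at 32387775 to 32435564 (minus strand). It had 9.03, 9.29 and 7.06 cpm after knockdown and 9.90, 9.79 and 9.78 in controls. The 3 controls were nearly equal, all knockdown cultures lay below them, and the log2 fold change was -0.21 (standard error 0.17, 95% interval -0.58 to 0.15, adjusted p of 0.44, edgeR). *WT1-AS*, which shares 47 exonic bases with *WT1* on the other strand, lay between 0.555 and 0.889 cpm and was not called (log2 fold change -0.07, adjusted p of 0.94, edgeR).

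*LHX1*, on chromosome 17 at 36936785 to 36944612 (plus strand), had 25.3, 22.7 and 26.3 cpm after knockdown and 28.7, 31.7 and 23.6 in controls. Control replicate 3 lay within the knockdown range, and the log2 fold change was -0.18 (standard error 0.14, 95% interval -0.48 to 0.12, adjusted p of 0.43, edgeR). *GATA3*, on chromosome 10 at 8045378 to 8075198 (plus strand), had 40.2, 43.8 and 46.7 cpm after knockdown and 44.7, 51.1 and 43.9 in controls. These ranges overlapped, and the log2 fold change was -0.10 (standard error 0.11, 95% interval -0.34 to 0.15, adjusted p of 0.62, edgeR). *GATA3-AS1*, its divergent neighbour with no shared exonic base, was also not called (log2 fold change 0.21, adjusted p of 0.76, edgeR). *PAX8* was too low to be tested, with 11 counts in each group summed over 3 cultures, a ratio of 1.05 after scaling to library size (exact binomial 95% interval 0.413 to 2.67, which covers counting error only). A p that misses the threshold does not show that the uncalled genes did not differ. The intervals of *PAX2* and *EYA1* reach log2 fold changes of 0.71 and 0.77, and that of *SIX2* reaches -1.26.

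**Figure D3:**
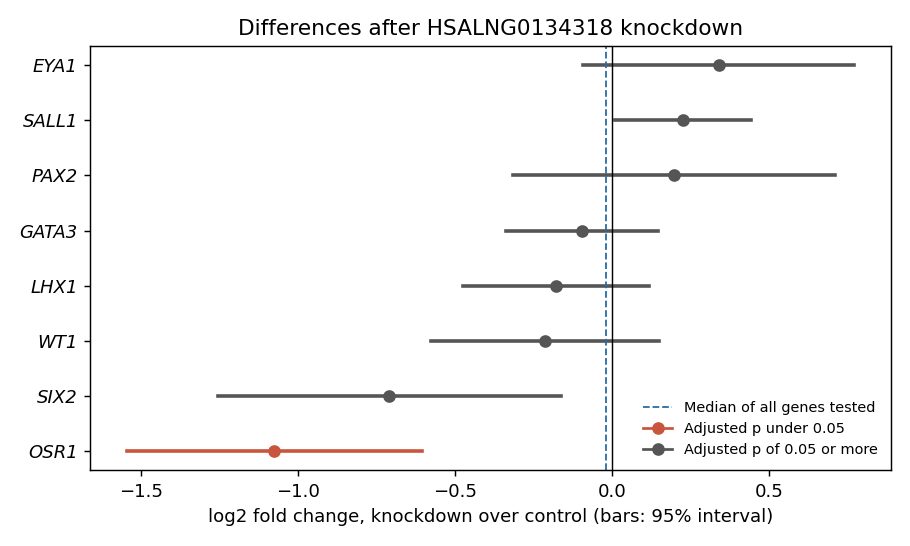
Log2 fold changes (knockdown over control) of the 8 tested regulators with 95% intervals from edgeR, n = 3 cultures per group. *OSR1* at -1.07 is the only gene called, and the intervals of *SIX2* and *SALL1* also stay on one side of 0.

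The spread among the controls was uneven. Control replicate 2 was the farthest from the other libraries, and it was the highest of the 6 cultures for 5 of the 8 tested regulators (62.5%), against 27.0% of all tested genes. This was not particular to them, as it also held for 59.1% of the other tested transcription regulators of the early kidney listed below. The share was 32.0% among family relatives and 14.8% among signals and receptors of nephron induction. For *PAX2* it lay 0.78 above the other controls on the log2 scale, for *SIX2* 0.66, for *OSR1* 0.34, for *LHX1* 0.28 and for *GATA3* 0.21. For *EYA1* it lay 0.66 below them. The transcripts of *PAX2* (63.6% GC) and *SIX2* (61.5%) are the richest in GC of the group and *EYA1* the poorest (42.2%), and over all tested genes the median deviation of control replicate 2 from the other controls ran from -0.22 in genes of 29.2% to 41.8% GC to 0.28 in genes of 56.4% to 82.1% GC. The part of GC content in these differences was not tested apart from the correction above, under which the log2 fold change of *OSR1* was -1.09 (adjusted p of 0.0026, edgeR). Without control replicate 2, it was -0.95 (adjusted p of 0.0097).

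**Figure D4:**
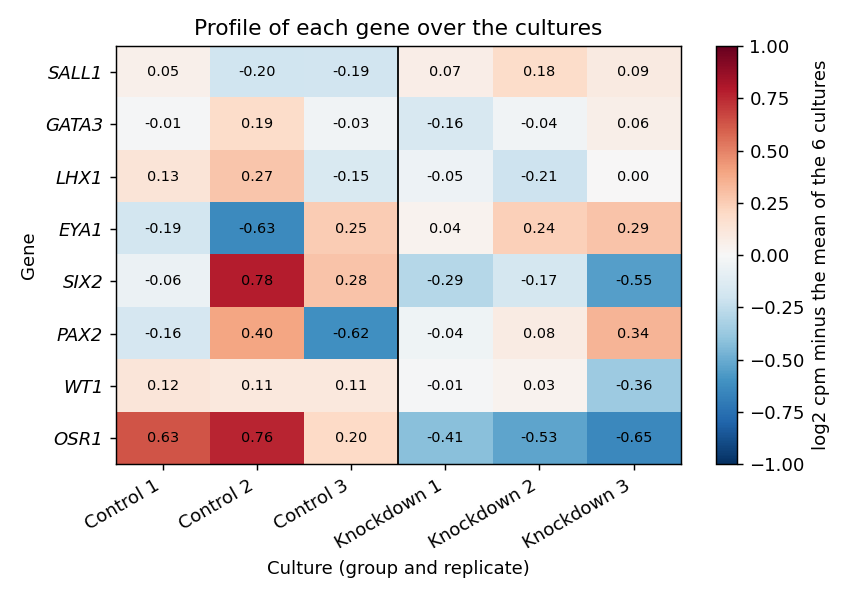
Log2 cpm of each tested regulator in each culture, relative to the mean of that gene over the 6 cultures. *OSR1* runs from 0.76 in control replicate 2 to -0.65 in knockdown replicate 3, and control replicate 2 also holds the highest value of *SIX2* (0.78) and the lowest of *EYA1* (-0.63).

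Among 31 other transcription regulators of the early kidney, 22 were tested, 0 were lower and 3 were higher, with a median log2 fold change of -0.03. The shares over all tested genes were 4.64% lower and 5.40% higher. *HOXC10*, a posterior homeobox gene, had 9.61, 10.5 and 10.8 cpm after knockdown and 5.56, 6.05 and 5.95 in controls, and rose by 0.81 on the log2 scale (adjusted p of 0.0097, edgeR). *SOX9*, which acts in the bud tips and in nephron segments, had 40.4, 57.9 and 54.4 cpm against 30.5, 29.3 and 37.7, and rose by 0.65 (adjusted p of 0.021, edgeR). *POU3F3*, a factor of the loop of Henle lineage, had 54.6, 72.2 and 68.9 cpm against 42.7, 47.3 and 48.1, and rose by 0.50 (adjusted p of 0.024, edgeR). The most abundant of this list per length were *HOXD10* at 307, *FOXC1* at 263 and *HOXD11* at 195, all above *SALL1*, and none of these 3 was called. The calls of all 3 risen genes were lost without knockdown replicate 2 or knockdown replicate 3, and those of *SOX9* and *POU3F3* also without control replicate 1, with adjusted p up to 0.062 for *HOXC10*, 0.11 for *SOX9* and 0.13 for *POU3F3*.

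Of 27 tested signals and receptors of nephron induction, 2 fell and 0 rose, beside 4.64% and 5.40% of all tested genes. Their median log2 fold change was -0.07. *NPNT*, the matrix ligand of the integrin of the progenitors, had 61.8, 73.3 and 70.6 cpm after knockdown and 103.8, 83.5 and 89.1 in controls, and fell by 0.43 on the log2 scale (adjusted p of 0.032, edgeR). *CTNNB1*, which codes for beta-catenin of the WNT pathway, had 352, 336 and 339 cpm against 443, 427 and 410 and fell by 0.32 (adjusted p of 0.032, edgeR). In neither gene did the groups overlap, which held for 32.2% of all tested genes. Both calls were lost without control replicate 1 or any knockdown culture, and that of *CTNNB1* also with the replicate block. The adjusted p rose up to 0.14 for *NPNT* and 0.18 for *CTNNB1*. Per length, the most abundant of these genes were *SLIT2*, which codes for a secreted guidance ligand, at 206, *CTNNB1* at 169 and *NOTCH2*, a receptor in nephron segmentation, at 103. Of 8 tested surface and matrix genes of progenitors and early kidney epithelium, 0 were called, with a median log2 fold change of -0.14. The most abundant of them per length were *EPCAM*, an adhesion gene of bud and nephron epithelium, at 252, *NCAM1* at 62.0 and *COL2A1* at 37.9. *CITED1* and *ITGA8*, markers of uninduced progenitors, were expressed, at length-scaled levels of 5.32 and 18.4. *TMEM100* and *LYPD1* were also expressed, at 2.68 and 14.2. *MEOX1*, *CRYM* and *DAPL1* were not. *MEOX1* lay between 0.0641 and 0.642 cpm and *CRYM* between 0.119 and 0.616 cpm, and *DAPL1* had 0 counts in every culture.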

How the data were processed

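RNA-seq reads of 6 HEK293 cultures, 3 per group, were processed by the authors, who deposited whole-number counts per gene without normalization. The submitters' processing notes name FastQC 0.11.9, Trim Galore 0.6.6, STAR 2.7.9a, featureCounts 2.0.1 and the build hg38, while the paper names other versions of STAR and featureCounts and the removal of ribosomal RNA reads with SortMeRNA. Gene annotation, strand setting and handling of multi-mapping reads are not given in the sources used here. Sample titles spell the line HEK393, and its own label reads HEK293.

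Counts were filtered with filterByExpr, scaled by TMM and compared between knockdown and control without a block, using the robust quasi-likelihood F test of edgeR 4.0.16 in R 4.3.3, in place of the DESeq2 test of the study. P-values were adjusted over all 14877 genes. Lengths, positions and GC content come from GENCODE 44 on hg38, matched to 23161 names by symbol and 1369 by synonym, while 1955 had no match. The relatives of *SIX2* are not reported singly here. The table held 13 names turned into dates. Biological variation was 12.4%.

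The genes and lists were chosen with earlier results of these data known. Named were all 9 regulators, from each other list at most 4 called genes by smallest p and the 3 highest per length, and the 5 genes (mean count at least 50) whose centred log2 cpm profile lay closest to that of *OSR1*. *OSR2*, *PAX1*, *PAX3*, *PAX4*, *PAX5*, *PAX6*, *SALL4*, *LHX2*, *CITED1*, *ITGA8*, *PAX8-AS1*, *STMN2*, *UMOD* and *SLC12A3* were added after their values were seen. So were *TMEM100*, *LYPD1*, *MEOX1*, *CRYM*, *DAPL1*, *AQP1* and *CUBN*. Alternatives were DESeq2 size factors, library sizes alone, no filter, at least 10 counts per culture, the replicate number as a block, the DESeq2 1.42.0 Wald test, limma-voom (limma 3.58.1) and each culture left out. A correction for GC content and length (loess, span 0.3) was chosen after seeing the data. Fits were checked on simulated data.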

Additional observations from a re-analysis of the deposited data

How the results depend on the processing

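Counts of calls moved with the cultures used. Over all genes, 690 were lower and 804 higher; leaving out each culture gave 233 to 1238 lower and 289 to 1274 higher, and the correction for GC content and length, chosen after seeing the data, gave 1442 lower and 1283 higher. The 1 regulator called lower became 0 to 1 when a culture was left out, with 0 to 1 higher, and 2 with that correction, the second being *SIX2* (-0.67). The lists of family relatives, other regulators, signals and surface genes had 25, 22, 27 and 8 tested genes. Together they held 2 lower and 4 higher calls, beside 4.64% and 5.40% of all tested genes. Leaving out a culture gave these lists 0 to 5 lower and 0 to 5 higher calls, and the correction gave 7 lower. Log2 fold changes with each culture left out ran from -1.21 to -0.95 for *OSR1*, -0.88 to -0.45 for *SIX2*, 0.14 to 0.59 for *EYA1* and -0.0058 to 0.51 for *PAX2*. The sign also turned for *HOXD10* (-0.051 to 0.088), *FOXC1* (-0.14 to 0.091), *SLIT2* (-0.037 to 0.12), *VIM* (-0.015 to 0.28), *KRT8* (-0.15 to 0.11), *GATA3-AS1* (-0.061 to 0.36) and *WT1-AS* (-0.23 to 0.092), and with the correction for *SLIT2* (-0.031) and *KRT8* (-0.013). The cause was not tested.

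Cultures with the same replicate number did not deviate together (correlations -0.199, -0.112 and -0.044). Nor did knockdown replicate 1 and control replicate 3, which both carry the label number 1 (-0.012). The numbers were therefore not taken to pair cultures. With the replicate block, 619 genes were lower and 714 higher, the regulators had 1 lower and 0 higher call, and *SALL2* and *CTNNB1* had adjusted p of 0.07 and 0.12. Low counts of *OSR1*, *SIX2* and *PAX8* limit what this depth can show.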

Other observations

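Of 20 markers of differentiated nephron and other kidney cells, 6 were tested, 2 fell and 1 rose. Over all tested genes, 4.64% were called lower and 5.40% higher. *LRP2*, the megalin receptor of proximal tubules, had 35.1, 43.2 and 40.7 cpm after knockdown and 76.0, 66.7 and 51.0 in controls, and fell by 0.70 on the log2 scale (adjusted p of 0.012, edgeR). The other expressed proximal tubule markers, *AQP1* and *CUBN*, did not fall (log2 fold changes 0.43 and 0.07), and neither was called. *KDR*, a VEGF receptor of endothelium, had 3.97, 2.22 and 3.64 cpm against 6.17, 5.76 and 5.81, and fell by 0.85 (adjusted p of 0.044, edgeR). *PODXL*, the podocalyxin of podocytes, had 84.8, 84.7 and 83.4 cpm against 58.3, 54.6 and 62.9, and rose by 0.52 (adjusted p of 0.0057, edgeR). *LRP2*, *KDR* and *PODXL* did not overlap between the groups, which held for 32.2% of all tested genes. The call of *PODXL* held in all 14 alternative settings (adjusted p up to 0.039), that of *LRP2* was lost without knockdown replicate 1, knockdown replicate 3 or control replicate 1 (up to 0.068), and that of *KDR* without any single culture except control replicate 2 (up to 0.18). Of 9 tested HEK293 markers, 0 were called, with a median log2 fold change of 0.14, and *VIM*, *UCHL1* and *KRT8* were the most abundant per length at 766, 635 and 308.

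The genes whose profile over the 6 cultures lay closest to that of *OSR1* were *EPOR*, *VWA5B2*, *ATP1B2*, *PCDHGC4* and *CDKN1A*, with root mean square differences of 0.049, 0.077, 0.102, 0.113 and 0.118 in centred log2 cpm, among 12375 genes. Of the other regulators the nearest was *SIX2*, at 0.316.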
